A study of Homo sapiens with 5 samples.

Results

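The genes described here are 10 alcohol and aldehyde dehydrogenases, ADH5, ALDH1A3, ALDH1B1, ALDH2, ALDH3A1, ALDH3A2, ALDH3B1, ALDH3B2, ALDH7A1 and ALDH9A1, out of 18724 genes that had a probe annotated with a single symbol in at least 1 table of the series. They were chosen by name, with earlier results of these data known, and each was read from its brightest probe in a table. They were measured in MCF12A, an established line of human breast epithelial cells that does not form tumours, on 5 expression arrays of 1 culture each. A first table held a culture kept for 4 weeks in 1% acetaldehyde, a culture kept for 4 weeks in 2.5% ethanol, and their untreated control. A second table, from another array design, held a single clone that grew in soft agar after ethanol exposure and was then expanded as a monolayer, and the control of that clone. The clone carries the same ethanol label, 2.5% for 4 weeks, but the description of the study gives its ethanol as 2.5 mM. The treatment protocol adds that a clone was plated for more ethanol exposure after selection, so when the clone met ethanol is not settled. The clone's control is labelled as unexposed and also bears a soft agar selection tag, so whether it too was selected is not settled by the labels. All 5 cultures were grown in the same medium with horse serum, epidermal growth factor, hydrocortisone, insulin and cholera toxin.

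Alcohol dehydrogenases oxidise ethanol to acetaldehyde, and aldehyde dehydrogenases oxidise acetaldehyde and many other aldehydes to acids. In liver the work falls mainly to cytosolic class I alcohol dehydrogenases and to mitochondrial ALDH2, while other family members handle formaldehyde, retinal, lipid peroxidation products, fatty aldehydes, and intermediates of lysine and carnitine metabolism. Breast epithelium is studied in this setting because ethanol intake is linked to breast cancer and acetaldehyde binds DNA.

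With 1 array per group there was no estimate of the spread between cultures, so no test was possible and no p-value is given; how precise the values below are is limited by that number of arrays. Values are RMA intensities, a background-corrected, normalised and probe-summarised brightness. A log2 difference is that of 2 arrays of the same table, and a gene was counted as higher or lower where the difference reached 2-fold and the brighter array was at or above a floor, the median intensity of the table. The floor was 70.2 for the first table and 92.0 for the second. That floor is a convention and not a measured background. Array medians ran from 69.98 to 70.61 in the first table and were 89.9 for the clone and 94.0 for its control. In bulk RNA, fewer cells of a type and less RNA per cell cannot be told apart.

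The epithelial label was checked against marker genes. Of 12 listed breast epithelial markers 10 were measured, and all 10 reached the floor in every culture except the clone, where 7 did. Their summed intensity was 15615 in acetaldehyde and 9696 in ethanol, against 15547 in control, and 10873 in the clone, against 27640 in its control. The summed intensity of 9 fibroblast markers was 632 in acetaldehyde and 652 in ethanol, against 544 in control, and 2025 in the clone, against 919.8 in its control, with 6 of 9 at the floor or above in the clone and 4 in its control. The summed intensity of the measured adipocyte markers was 468 in acetaldehyde and 2586 in ethanol, against 308 in control, and 1606 in the clone, against 631 in its control. FABP4 alone read 152 in acetaldehyde and 2163 in ethanol, against 41.8 in control, and 962 in the clone, against 23.1 in its control. PPARG read 119 in acetaldehyde and 202 in ethanol, against 75.5 in control, and 232 in the clone, against 185 in its control. ADIPOQ, LEP and LPL lay under the floor on all arrays. The 7 leukocyte markers measured summed to 1374 in acetaldehyde and 1790.0 in ethanol, against 1049.7 in control, and to 1370.2 in the clone, against 1451 in its control, and 3 and 2 of them reached the floor on each array of the first and the second table. Most of those sums was CD68, a lysosomal protein of macrophages and other cells, at 1055 in acetaldehyde and 1484 in ethanol, against 721 in control, while PTPRC, the defining leukocyte marker, lay under the floor on all arrays. The 6 endothelial markers summed to 274 in acetaldehyde and 285 in ethanol, against 274 in control, and to 632 in the clone, against 499.9 in its control, where KDR read 275 in the clone, against 69.3 in its control, and PECAM1, CDH5 and VWF lay under the floor on all arrays. The hepatocyte markers summed to 404 in acetaldehyde and 381 in ethanol, against 449 in control, and to 423 in the clone, against 474 in its control. Of the 10 epithelial markers 6 were at least 2-fold lower in ethanol, where 2.44% of all genes were. KRT8 was higher, at 3068 against 1474 in control. In the clone 7 of the 10 were lower, where 5.83% of all genes were, while KRT8 and KRT18 had log2 differences of 0.06 and 0.20. Of 6 fibroblast markers past the floor in the clone pair 4 were at least 2-fold higher, where 14.7% of all genes were. Of these 4, DCN and FAP had a control value under the floor in that pair. They were at least 1.81-fold and 3.12-fold higher when taken against the floor, so DCN was short of 2-fold by that bound. COL1A2 and PDGFRB lay below the control there. Summed epithelial, fibroblast and adipocyte levels and KDR thus moved with the clone, and summed epithelial and adipocyte levels and CD68 with ethanol. In acetaldehyde the adipocyte marker FABP4 was above control as well. The part of these markers in the differences below was not tested.

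Between acetaldehyde, ethanol and control, none of the dehydrogenase genes reached 2-fold. Of 9 genes with a usable probe, all 9 were past the floor, and 0 were at least 2-fold apart in acetaldehyde against control, where 1.08% of all genes were, 0 in ethanol against control, where 5.07% were, and 0 in acetaldehyde against ethanol, where 2.38% were. These background shares are low, so a count of 0 of 9 is close to them. At 1.5-fold the count was also 0 of 9 in each, where 2.57%, 10.4% and 6.0% of all genes were called. The acetaldehyde and ethanol comparisons share the control array. The median log2 difference over the 9 genes was 0.00 in each of these comparisons, as it was over all genes. Equal values were held by 6 of 9 in acetaldehyde against control, 4 in ethanol against control and 5 in acetaldehyde against ethanol. Those genes could not reach either fold, so the counts of 0 rest on the remaining genes. The medians of 0.00 rest in part on the equal values. In the clone 9 of the 10 genes were past the floor, and 3 were past 2-fold, where 20.5% of all genes were. ADH5 and ALDH1B1 were the 2 that were higher, where 14.7% of all genes were, and ALDH3B2 was the 1 that was lower, where 5.83% were. The median size of a log2 difference, without its sign, was 0.34 over these 9 genes and 0.48 over all 12262 genes tested.

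**Figure D1:**
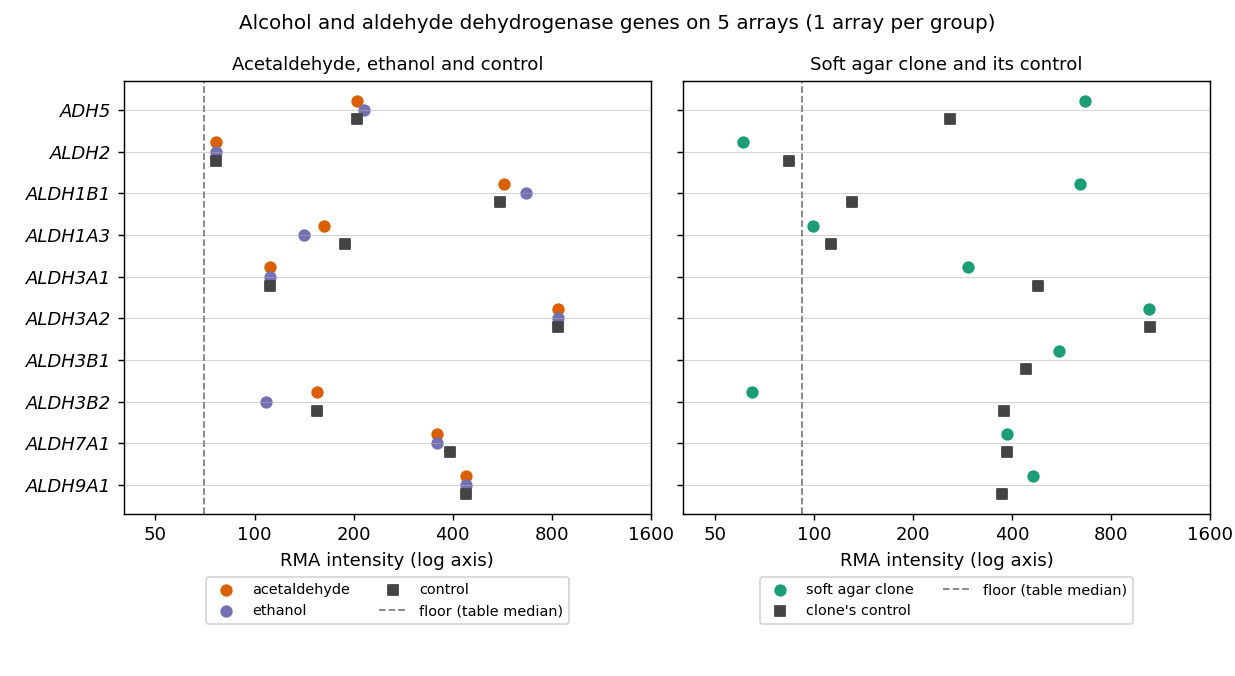
RMA intensity of each dehydrogenase gene on a log axis, 1 point per array, with circles for acetaldehyde, ethanol and the clone, squares for the controls, and a dashed line at the floor of each table. ADH5 and ALDH1B1 stand to the right of the control in the clone, ALDH3B2 stands to the left of it, and ALDH3B1 has no usable probe in the first table.

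ADH5 is the class III alcohol dehydrogenase. It oxidises formaldehyde bound to glutathione and reduces S-nitrosoglutathione, and it is a poor oxidiser of ethanol. ADH5 had an intensity of 204 in acetaldehyde and 215 in ethanol, against 204 in control, and the acetaldehyde and control values were equal. In the clone ADH5 stood at 666, against 259.9 in its control, a log2 difference of 1.36 or 2.56-fold. It was thus above its control in the clone and close to it in the exposed cultures, where the log2 difference was 0.07 for ethanol. In the clone comparison 1089 genes were further above the control than ADH5. A second ADH5 probe of the first table read 192 in acetaldehyde and 201 in ethanol, against 194 in control. The probe with the same identifier is listed with no gene on the clone's design and read 229 in the clone, against 130.4 in its control, which is 1.75-fold and so under 2-fold.

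ALDH2 and ALDH1B1 are the mitochondrial enzymes that oxidise acetaldehyde, and ALDH1B1 also takes retinal and other aldehydes. ALDH2 read 76.5 on the acetaldehyde, the ethanol and the control array alike, just above the floor. In the clone ALDH2 had an intensity of 60.8, against 84.3 in its control, both under the floor of that table, so no fold is given. ALDH2 thus lay close to the floor or under it in all 5 cultures.

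ALDH1B1 had an intensity of 571 in acetaldehyde and 668 in ethanol, against 557 in control, with log2 differences of 0.04 and 0.26. In the clone ALDH1B1 read 643, against 130.2 in its control, a log2 difference of 2.30 or 4.93-fold, with 256 of 12262 genes further above the control. The middle 95% of all genes lay between -1.60 and 2.20 in that comparison, so ALDH1B1 was just outside it. The clone's control is the low array for this gene: ALDH1B1 was brighter than 50.7% of genes there, and brighter than 87.9% in the clone, 86.7% in acetaldehyde, 89.1% in ethanol and 86.4% in the untreated control. Those shares rank a gene within each array, and across tables the array design and the normalisation cannot be told apart from the cultures. The clone thus held ALDH1B1 at a rank close to that of the 3 cultures of the first table, and the difference of 4.93-fold was measured against a control that ranked lower than any of them.

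The sequence before the start of transcription is shown for 4 genes that behaved differently in the clone: ADH5 and ALDH1B1, which were higher, ALDH1A3, whose probes disagreed, and ALDH7A1, which was equal in the clone and its control. Each line holds the 250 bases before the annotated start, 5′ to 3′ on the strand of the gene, from RefSeq on GRCh38.p14. Capitals mark matches on either strand to the GC box GGGCGG, the CCAAT box CCAAT, or GCGTG, the core bound by the aryl hydrocarbon receptor. Overlapping matches run together.
ADH5: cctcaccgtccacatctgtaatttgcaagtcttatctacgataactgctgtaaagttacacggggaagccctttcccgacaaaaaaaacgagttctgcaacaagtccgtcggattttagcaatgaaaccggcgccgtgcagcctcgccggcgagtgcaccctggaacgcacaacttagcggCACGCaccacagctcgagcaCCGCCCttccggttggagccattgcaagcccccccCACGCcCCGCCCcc
ALDH1B1: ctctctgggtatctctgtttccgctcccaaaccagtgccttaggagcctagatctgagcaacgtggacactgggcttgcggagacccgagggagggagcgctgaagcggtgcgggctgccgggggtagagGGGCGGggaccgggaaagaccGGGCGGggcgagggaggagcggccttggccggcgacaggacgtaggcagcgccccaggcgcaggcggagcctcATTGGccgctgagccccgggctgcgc
ALDH1A3: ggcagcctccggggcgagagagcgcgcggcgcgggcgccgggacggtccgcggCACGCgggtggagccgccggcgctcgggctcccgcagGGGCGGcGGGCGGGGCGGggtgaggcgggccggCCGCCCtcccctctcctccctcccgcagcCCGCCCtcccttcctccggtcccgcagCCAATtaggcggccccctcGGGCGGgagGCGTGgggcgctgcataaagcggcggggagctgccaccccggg
ALDH7A1: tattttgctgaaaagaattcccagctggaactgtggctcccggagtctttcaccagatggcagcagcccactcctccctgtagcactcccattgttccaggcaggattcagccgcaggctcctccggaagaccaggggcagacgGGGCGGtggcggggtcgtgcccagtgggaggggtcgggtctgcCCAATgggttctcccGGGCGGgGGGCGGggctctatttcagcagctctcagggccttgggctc

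ADH5 lies at chr4:99088789-99089038 on the - strand, ALDH1B1 at chr9:38392452-38392701 on the + strand, ALDH1A3 at chr15:100879581-100879830 on the + strand and ALDH7A1 at chr5:126595220-126595469 on the - strand, for these windows. The GC box matched 2 times in ADH5, 2 times in ALDH1B1, 6 times in ALDH1A3 and 3 times in ALDH7A1, and 42.6% of the 35116 windows of all genes held at least 1 match. The CCAAT box matched 1 time in ALDH1B1, ALDH1A3 and ALDH7A1, against 32.0% of all windows, and was not found in that of ADH5. GCGTG matched 2 times in ADH5 and 2 times in ALDH1A3, against 32.2% of all windows. No match was found in these 4 windows to the TATA box TATAAA, held by 10.7% of all windows, the E-box CACGTG, held by 6.34%, the AP-1 site TGANTCA, held by 6.57%, or the antioxidant response core TGACNNNGC, held by 10.9%. The share of G and C was 70.4% for ALDH1B1, 82.4% for ALDH1A3 and 64.0% for ALDH7A1, above the median of 58.0% over all windows, and 58.0% for ADH5, at that median. The GC box was thus in the windows of genes that were higher and of the gene that was equal in the clone. Matches are descriptions of the letters only. Of the 10 genes, 7 have a window in the RefSeq table used, and ALDH2, ALDH3A1 and ALDH3B2 are named only.

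**Figure D2:**
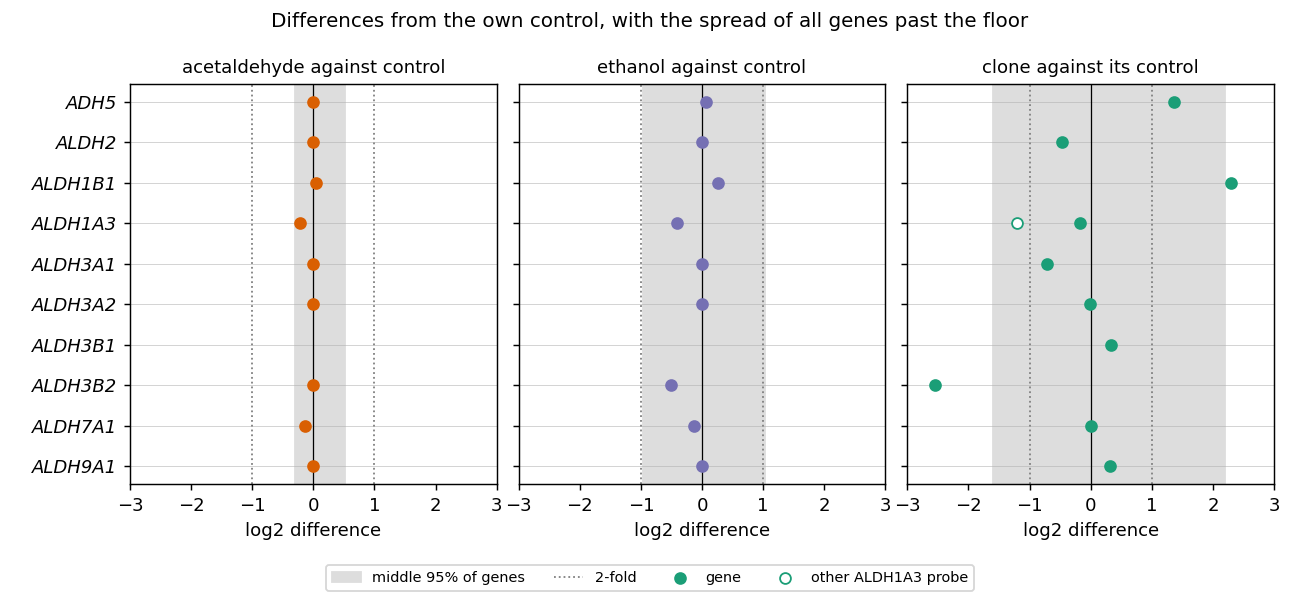
Log2 difference of each dehydrogenase gene from its own control in acetaldehyde, ethanol and the clone, with a grey band for the middle 95% of all genes past the floor and dotted lines at 2-fold. No point lies past 2-fold in acetaldehyde or ethanol, ALDH1B1 and ALDH3B2 lie outside the band in the clone, the open circle is the other ALDH1A3 probe at -1.20, and ALDH2 lies under the floor in the clone.

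ALDH1A3 makes retinoic acid from retinal and is widely used as a marker of stem-like breast cells. It read 162 in acetaldehyde and 141 in ethanol, against 188 in control, with log2 differences of -0.21 and -0.41. Both exposed cultures were under the control, by 1.16-fold and 1.33-fold, and 541 and 856 genes were further below it. The clone's array held a disagreement between its 2 ALDH1A3 probes. The probe with the higher mean log2 intensity read 99.5 in the clone, against 113 in its control, a log2 difference of -0.18. The other, which is the probe used for the first table, read 68.3 in the clone, against 157 in its control, a log2 difference of -1.20. On that probe the clone lay under the floor, and the count of genes past 2-fold in the clone is 4 with it and 3 without. The count of 4 thus rests on a value under the floor. With the 2 probes averaged, the log2 difference of ALDH1A3 in the clone was -0.69, short of 2-fold. In the first table the probe used for the clone read 48.4 in acetaldehyde and 49.5 in ethanol, against 48.4 in control, all under the floor.

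ALDH3A1 is a cytosolic enzyme that oxidises aromatic and medium-chain aldehydes, abundant in the cornea and induced through the aryl hydrocarbon receptor. It read 111 on the acetaldehyde, the ethanol and the control array, with equal values. In the clone ALDH3A1 had an intensity of 294, against 480.2 in its control, a log2 difference of -0.71 or 1.63-fold lower, which is past 1.5-fold and short of 2-fold. At 1.5-fold, 40.9% of all genes were past the threshold in that comparison. ALDH3A1 was brighter than 72.6% of genes in the clone and 85.4% in its control, and brighter than 50.6%, 51.1% and 51.2% in acetaldehyde, ethanol and control. ALDH3A1 thus ranked higher within both arrays of the clone pair than within the arrays of the first table. CYP1A1, the best known target of the same receptor, had an intensity of 44.9 in the clone, against 1675 in its control, and lay under the floor on all 3 arrays of the first table. Of 8 genes of that receptor and its targets, 7 were measured and 6 were past the floor in each table. Of these 0 were past 2-fold in acetaldehyde, where 1.08% of all genes were. In ethanol 1 was lower, where 2.44% of all genes were, and in the clone 2 were lower, where 5.83% were. The other one was TIPARP, which damps the receptor, at 835 in acetaldehyde and 550 in ethanol, against 1182 in control, and 1215 in the clone, against 4027 in its control. In the clone CYP1B1, NQO1, AHR and ARNT of the same list had log2 differences of 0.10, -0.14, -0.13 and 0.28.

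ALDH3A2 is the fatty aldehyde dehydrogenase of the endoplasmic reticulum, whose loss causes Sjögren-Larsson syndrome. It was equal at 832 on the acetaldehyde, the ethanol and the control array. In the clone ALDH3A2 read 1045, against 1053 in its control, a log2 difference of -0.01. The clone thus did not set ALDH3A2 apart from its control. The equal values of the first table do not show that its level was the same in those cultures.

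ALDH3B1 and ALDH3B2 are near relatives, encoded by neighbouring genes of chromosome 11, that oxidise lipid-derived aldehydes at membranes. In the first table the only probe that names ALDH3B1 also names ALDH3B2, and its reads of 338 in acetaldehyde and 380.2 in ethanol, against 319.8 in control, cannot be given to either gene. On the clone's design the same probe is listed for ALDH3B1 alone and read 555 in the clone, against 439.6 in its control, a log2 difference of 0.34. It is counted as ALDH3B1 by that listing only. Whether the probe also reads ALDH3B2 there was not tested, so this value may not be that of ALDH3B1 alone.

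ALDH3B2 has a probe of its own on both designs. It read 154 in acetaldehyde and 108 in ethanol, against 154 in control, and the acetaldehyde and control values were equal. The log2 difference in ethanol was -0.51, which was the largest in size of the 9 genes on the first table, at 1.42-fold, with 680 genes further below the control. In the clone ALDH3B2 read 64.8, under the floor, against 379 in its control. The log2 difference was -2.55, and the fold is at least 4.12-fold lower when taken against the floor. Since the clone's value lay under the floor, no rank among all genes is given. ALDH3B2 was thus past 2-fold below its control in the clone alone, and its difference in ethanol was short of both 2-fold and 1.5-fold. On the shared probe the log2 difference in ethanol was 0.25, of the opposite sign.

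By the values as deposited, ALDH3B2 had the log2 difference of largest size in the clone, though ALDH1B1 was further from its control with values under the floor raised to it, at 2.30 against -2.04 for ALDH3B2, and with centring, at 2.47 against -2.38. The genes most like ALDH3B2 across the comparisons were sought by Euclidean distance over the 3 log2 differences from control, among 10445 genes past the floor in all 3, with ALDH3B2 at its deposited value in the clone. The nearest were MYO5B, RHOV, PROM2, RASSF5 and TMC4, at distances of 0.21, 0.21, 0.22, 0.27 and 0.27. MYO5B encodes a myosin motor of membrane traffic. It read 99.3 in acetaldehyde and 69.2 in ethanol, against 107 in control, and 31.0 in the clone, against 164 in its control. Its values in ethanol and in the clone lay under the floor, so its differences there rest on such values. RHOV read 232 in acetaldehyde and 150 in ethanol, against 232 in control, and 213 in the clone, against 1408 in its control. PROM2, which encodes a protein of plasma membrane protrusions, read 154 in acetaldehyde and 110.1 in ethanol, against 164 in control, and 119 in the clone, against 609.9 in its control. All 5 had log2 differences between -0.70 and -0.33 in ethanol, short of 2-fold, and between -2.74 and -2.36 in the clone, which is what the measure selects.

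ALDH7A1 breaks down lysine and protects against lipid-derived aldehydes, and ALDH9A1 oxidises the aldehyde of carnitine synthesis. ALDH7A1 read 358 in acetaldehyde and 358 in ethanol, against 393 in control, so the exposed arrays were equal to each other and 1.10-fold under the control. In the clone ALDH7A1 read 386, and in its control the same 386, an equality found in 0.196% of genes of that table. Centred on the median of all probes, which shifted all genes of that comparison alike, the log2 difference was 0.17. ALDH9A1 was equal at 439 on all 3 arrays of the first table, and read 462 in the clone, against 372 in its control, a log2 difference of 0.31. Neither gene reached 2-fold in any comparison.

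Equal values were common among the dehydrogenases of the first table. Of the 9 genes, 4 were equal on all 3 arrays within 1e-06 on the log2 scale, ALDH2, ALDH3A1, ALDH3A2 and ALDH9A1, where 26.0% of genes past the floor were. A further 3, ADH5, ALDH3B2 and ALDH7A1, were equal on 2 of the arrays, so that 7 of 9 had an equality, where 51.5% of genes past the floor did. ALDH1A3 and ALDH1B1 differed on every array. By pairs, acetaldehyde equalled control in 6 of 9, where 37.9% of genes did, ethanol equalled control in 4 of 9, where 30.7% did, and acetaldehyde equalled ethanol in 5 of 9, where 35.1% did. Over all genes equality on 3 arrays was found in 69.5% of the dimmest and 10.5% of the brightest of 10 equal groups by brightness, and ALDH3A2 was in the brightest group and ALDH9A1 in the next. How the equal values arose was not tested, and for these genes a difference of 0 does not show that the level was the same in the cells.

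**Figure D3:**
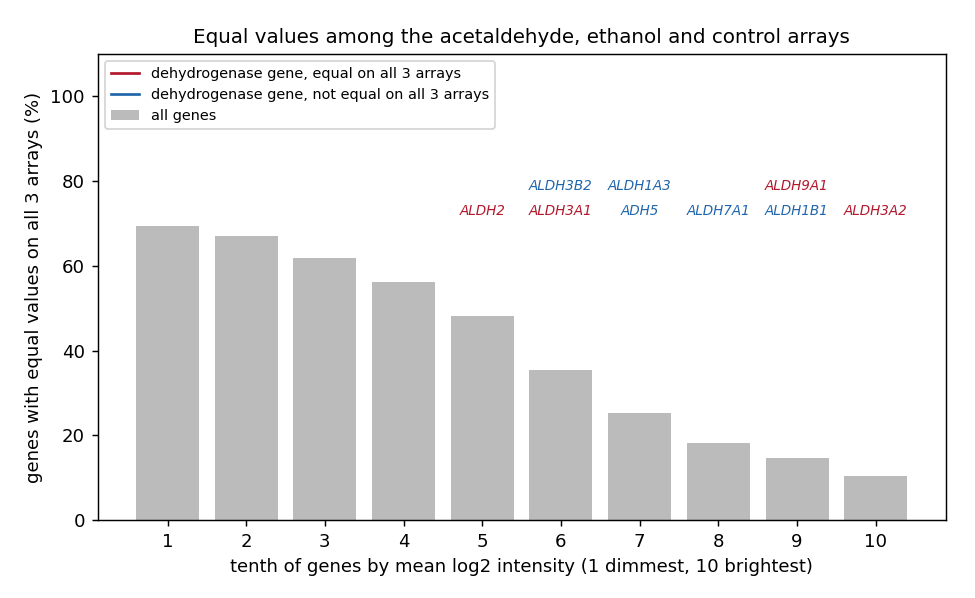
Share of genes with equal values on the acetaldehyde, ethanol and control arrays (bars, in percent) for 10 groups of genes from the dimmest to the brightest. Gene names stand above the group that holds them, and the 4 equal ones range from the fifth group, with ALDH2, to the tenth, with ALDH3A2.

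The rest of both families and their partner pathways were read from lists chosen with earlier results known. Of 17 other ADH and ALDH genes 5 were past the floor among acetaldehyde, ethanol and control. Of these 0 were past 2-fold in acetaldehyde, where 1.08% of all genes were, and 1 in ethanol, where 5.07% were. In the clone pair 8 were past the floor and 2 of them were higher, where 14.7% of all genes were. The class I genes ADH1A, ADH1B and ADH1C, the main ethanol oxidisers of liver, lay under the floor on all 5 arrays, as did ALDH1A1. ALDH1L2, a mitochondrial folate enzyme of the aldehyde dehydrogenase family, read 454 in acetaldehyde and 289 in ethanol, against 606 in control. In the clone ALDH1L2 read 265, against 126 in its control. It was 2.10-fold lower in ethanol and 2.11-fold higher in the clone, so it stood on opposite sides of its controls. The controls ranked apart: ALDH1L2 was brighter than 87.7% of genes in the untreated control and 49.5% in the clone's control. It was brighter than 74.0% in ethanol and 69.9% in the clone. Across tables the array design cannot be told apart from the cultures, so a reversed response is not shown. ADHFE1, a mitochondrial hydroxyacid-oxoacid transhydrogenase, read 99.8 in the clone, against 47.9 in its control, which is at least 1.08-fold when taken against the floor.

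Outside the dehydrogenases, 9 genes of other ethanol oxidation and acetate use were listed and 7 measured, and the furthest from control was AOX1, an aldehyde oxidase of the cytosol. AOX1 read 245 in acetaldehyde and 465 in ethanol, against 58.6 in control, at least 3.49-fold and 6.61-fold higher against the floor. In the clone AOX1 read 685, against 36.9 in its control, at least 7.44-fold higher. AOX1 was thus past 2-fold above its control in all 3 comparisons, which none of the 10 dehydrogenases was. XDH, the purine oxidase related to AOX1, read 462 in acetaldehyde and 167 in ethanol, against 579 in control, and 239.6 in the clone, against 60.4 in its control. XDH was brighter than 87.0% of genes in the untreated control and 27.2% in the clone's control, and than 61.3% in ethanol and 67.2% in the clone. ACSS2, which turns acetate into acetyl-CoA, read 245 in acetaldehyde and 273 in ethanol, against 243 in control, and 354 in the clone, against 1156 in its control. CYP2E1, the microsomal ethanol oxidase, lay under the floor on all 5 arrays.

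**Figure D4:**
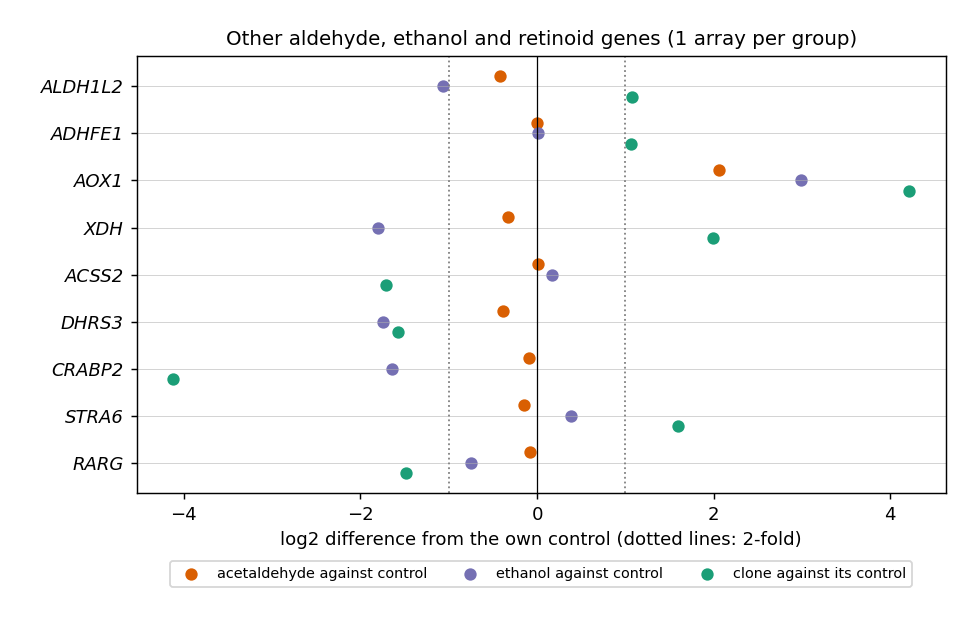
Log2 difference from the own control of 9 genes outside the 10 dehydrogenases, those of the related family, ethanol oxidation and retinoid lists past 2-fold in at least 1 comparison with a control, with 1 point per comparison. AOX1 lies to the right of 0 in all 3, and ALDH1L2 and XDH lie to the left in ethanol and to the right in the clone. ADHFE1 was under the floor in the first table.

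Of 18 genes of retinoid synthesis and response, the pathway of ALDH1A3, 11 were past the floor in the first table. Of these 0 were past 2-fold in acetaldehyde, where 1.08% of all genes were, and 2 were lower in ethanol, where 2.44% were. In the clone pair 10 were past the floor, with 1 higher and 3 lower, where 14.7% and 5.83% of all genes were. DHRS3, which reduces retinal back to retinol, read 265 in acetaldehyde and 103 in ethanol, against 346 in control, and 187 in the clone, against 559 in its control. CRABP2, which carries retinoic acid to its receptor, read 242 in acetaldehyde and 82.9 in ethanol, against 259 in control, and 57.2 in the clone, against 995 in its control. Both were past 2-fold lower in ethanol and in the clone, whereas ALDH1A3 was short of 2-fold in ethanol. STRA6, the cell's receptor for retinol uptake, was the one that was higher, at 421 in the clone, against 139 in its control, and RARG, a retinoic acid receptor, read 261 in the clone, against 729 in its control. Among 7 partner genes of ADH5 in glutathione and formaldehyde metabolism, 6 were measured. Only CBR1, a carbonyl reductase, passed 2-fold, at 353 in the clone, against 782 in its control, where 20.5% of all genes were past 2-fold. ESD, the hydrolase that follows ADH5, read 811 in the clone, against 443 in its control, with a log2 difference of 0.87. Of 17 Fanconi genes, which repair crosslinks that aldehydes make in DNA, 13 were measured, and 5 of 10 past the floor were at least 2-fold higher in the clone and 1 lower, where 14.7% and 5.83% of all genes were. Of those 5, 3 had a control value under the floor and were at least 1.02-fold, 1.24-fold and 1.62-fold higher when taken against it, so that 2 were at least 2-fold higher by that bound. FANCI, one of these 2, read 396 in the clone, against 101 in its control. FANCE was the lower one, at 359 in the clone, against 908 in its control. None of 12 Fanconi genes past the floor reached 2-fold in acetaldehyde or ethanol, where 1.08% and 5.07% of all genes did.

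The substrates of ALDH7A1 and ALDH9A1 arise in lysine, carnitine and polyamine metabolism, and 10 genes of such pathways were measured. SMOX, the spermine oxidase, was the 1 past 2-fold in ethanol, of 7 past the floor, where 5.07% of all genes were. It read 157 in acetaldehyde and 303 in ethanol, against 91.1 in control, and 182 in the clone, against 145 in its control. In the clone 1 was higher and 1 lower of 6 past the floor, where 14.7% and 5.83% of all genes were. MAOB, an oxidase that makes aldehydes from amines, read 319 in the clone, against 114 in its control. SAT1, which acetylates polyamines, read 1032 in the clone, against 3635 in its control.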

How the data were processed

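The 5 MCF12A arrays, 1 per group, carried biotin-labelled total RNA. The authors' deposited tables hold linear intensity made with RMA, per the submitters' processing notes, with no version, settings or genome build given in the sources used here. They came in 2 tables of different array designs, with 33297 probes each, taken as normalised separately, so differences stay within a table. Log2 of each value was taken. Annotation tables named 19181 and 19460 probes with 1 symbol; 2055 and 1754 had several symbols and 12061 and 12083 were unlisted, and none of these was named, except that the shared ALDH3B probe and the unlisted second ADH5 probe are given as such. A gene with several probes (895 of 17958 and 769 of 18417) was read from the probe of highest mean log2 intensity.

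No test was run. Calculations used Python 3.11.15, numpy 2.4.6, pandas 2.3.3 and statsmodels 0.14.6 and were tested on simulated data. The genes, lists and motifs were chosen with earlier results of these data known. Of the other lists, the genes named are among the 4 furthest past 2-fold per list and comparison, and those named under the floor or short of 2-fold were chosen after their values were seen. Alternatives covered the floor, the fold, centring, lowess, quantile normalisation, the probe rule and probe naming.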

Additional observations from a re-analysis of the deposited data

How the results depend on the processing

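The count of genes past 2-fold was 0 of 9 for acetaldehyde against control, ethanol against control and acetaldehyde against ethanol under each alternative run: no floor, a floor at the 75th percentile (where 4 genes remained to be tested), 1.5-fold, centring, removal of a lowess trend on brightness, repeated quantile normalisation, probes averaged per gene, probes with several symbols admitted (10 genes), values under the floor raised to it, and the brightest probe by mean intensity, the last chosen after seeing the data. In the first table, removing the floor, raising values to it and centring left the differences of all 9 genes unchanged, so they could not move the count. By the values as deposited, genes equal in a pair could not reach either fold there. For the clone the count was 3 under each alternative except 2. It was 4 at 1.5-fold, where ALDH3A1 was added. It was also 4 with the brightest probe by mean intensity, where ALDH1A3 was added at -1.20 with its clone value under the floor. With probes of several symbols admitted ALDH3B2 was read from the shared probe, at 0.25 in ethanol against -0.51 on its own probe. Centring on the median of all probes moved the median over all genes in the clone to 0.15, against -0.02 as reported; ALDH7A1 was then 0.17 and ALDH3A2 0.15, and the called genes were 1.52 (ADH5), 2.47 (ALDH1B1) and -2.38 (ALDH3B2). The number of genes equal on all 3 arrays was 4 under each tolerance and probe setting tried, and no floor entered that count. None of the 3 values past 2-fold in the clone changed sign under these alternatives. No paired analysis was possible because each group holds 1 array. With no replicates, no array could be left out.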
